A study of Mus with 4 samples.

Results

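The genes described here encode the platelet-derived growth factor (PDGF) ligands of the mouse, Pdgfa, Pdgfb, Pdgfc and Pdgfd. They were chosen by Ensembl identifier as 4 of the 54532 rows of a deposited gene count table, and all 4 passed the filter on low counts, which left 15510 tested genes. The libraries were made from liver sinusoidal endothelial cells (LSECs), the fenestrated endothelium of the liver capillaries, after treatment of the mice with carbon tetrachloride (CCl4), a hepatotoxin that injures the liver and brings on fibrosis. The control group (CTL) and the Pofut1 knockout group (P1KO) had 2 libraries each, named CTL1, CTL2, KO1 and KO3 after the columns of the table. POFUT1 transfers O-linked fucose onto EGF-like repeats, including those of the Notch receptors. Both groups received CCl4, and no group without it is part of the comparison. The series title places the deletion in the endothelium. The Cre driver, strain, age, sex and CCl4 schedule were not stated in the sources used here, nor whether a library came from 1 mouse or several. The labels name the cells as LSECs of the liver, but the extraction text names heart ventricles.

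PDGFs are secreted dimers that signal through the receptor tyrosine kinases PDGFR-alpha and PDGFR-beta. In the injured liver, hepatic stellate cells take up PDGFR-beta signalling as they turn into proliferating, matrix-producing myofibroblasts, and PDGF is among the strongest mitogens known for them. PDGF-A and PDGF-B are the classical chains and are processed inside the cell, whereas PDGF-C and PDGF-D are secreted as latent proteins with a CUB domain that has to be cleaved off outside the cell. The series asks how endothelial POFUT1 acts on LSECs and stellate cells, and the comparison that bears on the ligands is P1KO against CTL.

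No PDGF ligand was called changed in P1KO. With edgeR's quasi-likelihood test, 0 of 4 passed a Benjamini-Hochberg adjusted p of 0.05, a threshold passed by 19.5% of all tested genes, and by 9.84% in the lower direction. At an unadjusted p below 0.05, 3 of 4 passed, all lower in P1KO, against 33.7% of tested genes in either direction and 17% in the lower direction. DESeq2 also called 0 of 4, against 15.4% of the genes to which it gave an adjusted p, with 2 ligands at an unadjusted p below 0.05. With limma-voom, 0 of 4 were called, against 20.1% of tested genes, with 3 ligands at an unadjusted p below 0.05. The share of all genes below that unadjusted threshold was not computed for DESeq2 or limma-voom. Pdgfa, Pdgfb and Pdgfc were lower in both P1KO libraries than in both CTL libraries. Such a separation was found for 62.6% of tested genes in either direction and for 32.1% in the lower direction, so it is common in these libraries. The median log2 fold change was -0.48 over the 4 ligands and -0.01 over all tested genes. With 2 libraries a group, the smallest two-sided p of an exact permutation test is 0.333, so a call could come only from the fit across all genes.

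**Figure D1:**
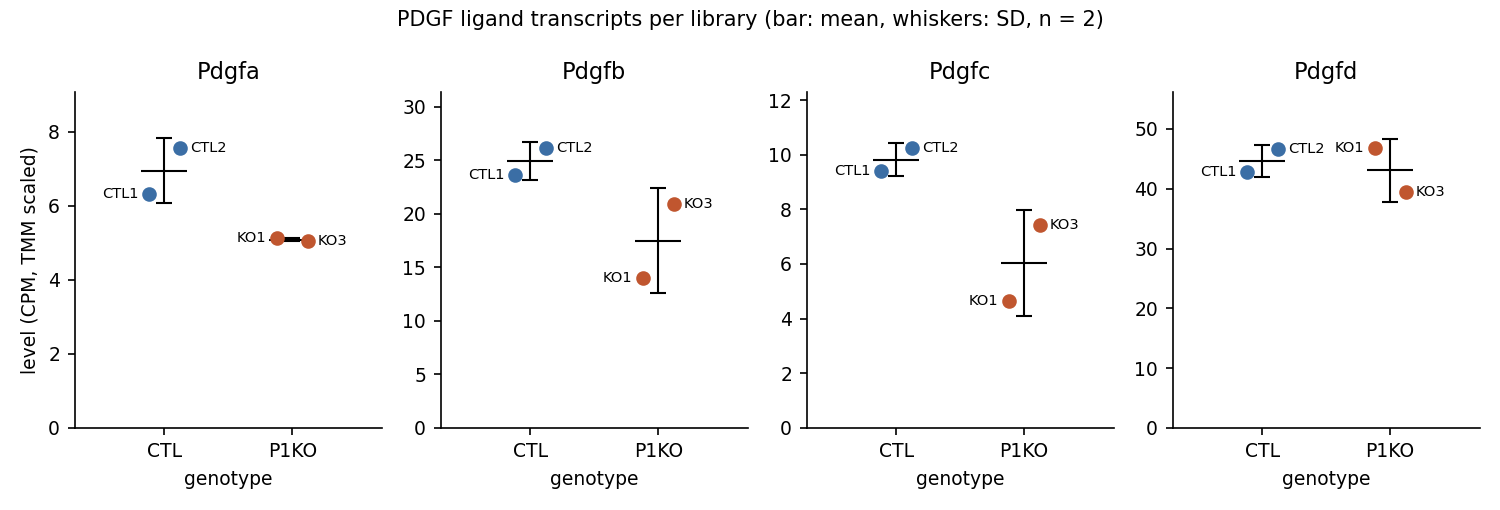
Level of each PDGF ligand gene in each library (vertical axes, CPM after TMM scaling, starting at 0 and differing between panels) by genotype, with points for libraries, horizontal bars for means and whiskers for the SD (n = 2). Both P1KO points lie under both CTL points for Pdgfa, Pdgfb and Pdgfc, KO1 lies below KO3 for Pdgfb and Pdgfc, and the groups overlap for Pdgfd.

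Pdgfb encodes the chain that endothelium is best known for: endothelial PDGF-B recruits pericytes to vessels, stellate cells are the pericytes of the sinusoid, and the PDGF-BB dimer binds both receptors. The gene (ENSMUSG00000000489) lies on chromosome 15 from 79995865 to 80024614 (GRCm38.p6). The CTL libraries held 415 (CTL1) and 467 (CTL2) Pdgfb reads, and the P1KO libraries 247 (KO1) and 373 (KO3). Scaled, these are levels of 23.6 and 26.1 CPM (reads scaled to a common library size) in CTL1 and CTL2, and of 14.0 and 21.0 CPM in KO1 and KO3. KO1 was the low library, and KO3 lay nearer to CTL1 than to KO1. Mean levels were 24.9 ± 1.78 CPM for CTL and 17.5 ± 4.89 CPM for P1KO (SD, n = 2 each). This was a log2 fold change of -0.51 ± 0.18 (SE), not called (edgeR adjusted p = 0.0884). Its 95% interval in the fit, unadjusted for the number of genes, ran from -0.92 to -0.09.

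The size of the Pdgfb difference rested on KO1. KO3 held 1.49 times the Pdgfb level of KO1, with a 95% interval of 1.27 to 1.76 (exact binomial on the reads, counting error only). CTL2 and CTL1 differed by a ratio of 1.11, with an interval of 0.967 to 1.27. The log2 fold change was -0.25 without KO1 (edgeR adjusted p = 0.0787) and -0.83 without KO3 (edgeR adjusted p = 1.64e-09). In both fits the spread comes from the CTL pair alone. KO3 is assumed to vary like that pair in the fit without KO1, and KO1 in the fit without KO3. In that fit 33.6% of all tested genes were called. A limma-voom fit with a separate spread per group, chosen after seeing the data, called Pdgfb at an adjusted p of 0.0477, and 19% of tested genes. Over all alternatives the adjusted p of Pdgfb ranged from 1.64e-09 to 0.434.

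Pdgfa encodes the chain whose homodimer binds PDGFR-alpha and not PDGFR-beta. The gene (ENSMUSG00000025856) lies on chromosome 5 from 138976014 to 139000792. It had 111 (CTL1) and 135 (CTL2) reads in CTL and 90 reads in each of KO1 and KO3, the fewest of the ligands in total, although Pdgfc had fewer in KO1. As levels these were 6.32 and 7.56 CPM for CTL1 and CTL2, and 5.11 and 5.06 CPM for KO1 and KO3. Here the P1KO libraries were level with each other, and CTL2 stood above CTL1. CTL averaged 6.94 ± 0.874 CPM and P1KO 5.08 ± 0.0408 CPM (SD, n = 2 each). The close P1KO values reflect equal read counts, and the KO3 to KO1 ratio of 0.989 had a counting interval of 0.730 to 1.34. The log2 fold change of -0.45 ± 0.18 (SE) was not called (edgeR adjusted p = 0.135), with an unadjusted 95% interval of -0.88 to -0.02. The adjusted p of Pdgfa lay between 0.0965 and 0.537 in all 12 alternatives, and its log2 fold change between -0.58 and -0.32. The smallest change was that without CTL2.

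Pdgfc encodes the CUB-domain chain that tissue plasminogen activator can cleave into an active ligand of PDGFR-alpha. The gene (ENSMUSG00000028019) lies on chromosome 3 from 81036416 to 81214040. Reads numbered 165 (CTL1) and 183 (CTL2) against 82 (KO1) and 132 (KO3). The corresponding levels were 9.40 and 10.2 CPM for the CTL libraries, and 4.66 and 7.42 CPM for KO1 and KO3. As for Pdgfb, both P1KO libraries were low and KO1 was the lower. The group means were 9.82 ± 0.600 CPM for CTL and 6.04 ± 1.95 CPM for P1KO (SD, n = 2 each), so that P1KO stood at 61.5% of CTL. Among the ligands this was the log2 fold change of largest size, -0.70 ± 0.23 (SE), and it too was not called (edgeR adjusted p = 0.0700). Its unadjusted 95% interval ran from -1.23 to -0.17.

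The KO3 to KO1 ratio of Pdgfc was 1.59, with a 95% counting interval of 1.20 to 2.12, against a CTL2 to CTL1 ratio of 1.09 with an interval of 0.879 to 1.35. Without KO1 the log2 fold change was -0.41, and without KO3 it was -1.075. Both of these fits again take their spread from the CTL pair alone. With both CTL libraries summed into 1 the adjusted p of Pdgfc was 0.328, and that of Pdgfb 0.365. In that fit 0.98% of tested genes were called.

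Pdgfd encodes the other CUB-domain chain, which urokinase can cleave and which as a dimer acts mainly on PDGFR-beta. The gene (ENSMUSG00000032006) lies on chromosome 9 from 6168363 to 6534284. The CTL libraries held 751 (CTL1) and 832 (CTL2) Pdgfd reads, and the P1KO libraries 824 (KO1) and 701 (KO3). Scaled, CTL1 and CTL2 stood at 42.8 and 46.6 CPM, and KO1 and KO3 at 46.8 and 39.4 CPM. The groups overlapped, with a P1KO library at each end of the range. On average CTL had 44.7 ± 2.69 CPM and P1KO 43.1 ± 5.26 CPM (SD, n = 2 each). On the log2 scale the change was -0.05 ± 0.10 (SE; edgeR adjusted p = 0.758). Its unadjusted 95% interval spans P1KO levels from 82.2% to 113% of CTL, so a change within that range was not excluded. The sign itself depended on the library left out: the log2 fold change was 0.0057 without CTL2 and 0.067 without KO3, but -0.12 without CTL1 and -0.18 without KO1.

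**Figure D2:**
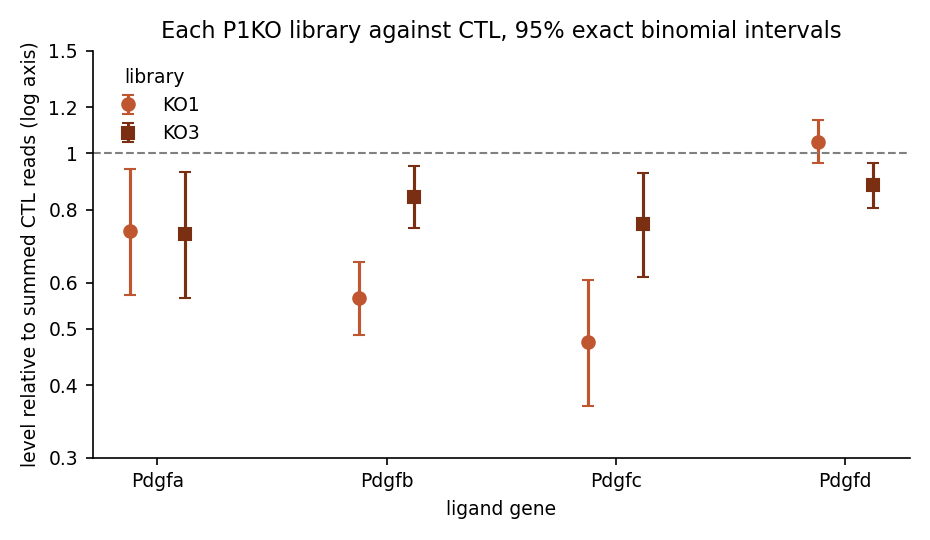
Level of each ligand gene in KO1 (circles) and KO3 (squares) relative to the summed CTL reads, on a log axis, with 95% exact binomial intervals that cover counting error only. The KO1 intervals of Pdgfb and Pdgfc lie below the KO3 points, the Pdgfa points coincide, and for Pdgfd KO1 lies above 1 and KO3 below it.

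The P1KO libraries thus differed from each other in opposite ways for different ligands. Relative to the CTL reads, KO1 stood at 0.564 for Pdgfb (95% counting interval 0.487 to 0.650) and at 0.474 for Pdgfc (0.368 to 0.605). KO3 stood at 0.842 for Pdgfb (0.744 to 0.951) and at 0.755 for Pdgfc (0.613 to 0.925). For Pdgfd the order was the other way round, at 1.05 in KO1 (0.962 to 1.14) and 0.881 in KO3 (0.805 to 0.964). For Pdgfa the values were 0.736 in KO1 (0.572 to 0.941) and 0.728 in KO3 (0.565 to 0.930). The gap between KO1 and KO3 was wider for Pdgfc than for 89.6% of tested genes, and wider for Pdgfb than for 87.2%. For Pdgfd the corresponding share was 67.3%, and for Pdgfa 6.90%.

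The make-up of the ligand reads differed between the libraries as well. These shares are of reads and not per transcript length, so they are read across libraries and not between genes. Pdgfd held 52.1% of the ligand reads in CTL1 (95% exact binomial interval 49.5% to 54.7%), 51.5% in CTL2 (49.0% to 53.9%), 66.3% in KO1 (63.6% to 68.9%) and 54.1% in KO3 (51.3% to 56.8%). The interval of KO1 lay above those of the other libraries, and the others overlapped. These intervals cover counting error only and not the spread between libraries of a group. The Pdgfb share was 28.8% in CTL1, 28.9% in CTL2 and 28.8% in KO3, against 19.9% in KO1 (17.7% to 22.2%). For Pdgfc the share was 11.4% and 11.3% in the CTL libraries, 6.60% for KO1 and 10.2% for KO3. The Pdgfa share stayed between 6.94% and 8.35% in the 4 libraries. Summed over the ligands, the level was 82.1 and 90.5 CPM for CTL1 and CTL2, and 70.6 and 72.8 CPM for KO1 and KO3.

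Ratios of one ligand's reads to another's within a library do not depend on how libraries are scaled. For Pdgfc over Pdgfd the ratio was 0.220 in both CTL libraries, 0.0995 in KO1 and 0.188 in KO3. For Pdgfb over Pdgfd it was 0.553 and 0.561 in the CTL libraries, 0.300 for KO1 and 0.532 for KO3. Both ratios were lower in P1KO, the second only narrowly so in KO3. Pdgfa over Pdgfd was lower too, from 0.148 and 0.162 in CTL1 and CTL2 to 0.109 and 0.128 in KO1 and KO3. Pdgfb over Pdgfc moved less than these, from 2.52 and 2.55 in CTL1 and CTL2 to 3.01 and 2.83 in KO1 and KO3. The ratios of Pdgfa to Pdgfb and of Pdgfa to Pdgfc overlapped between the groups. Over the 6 pairs of ligands the lowest two-sided exact permutation p was 0.333 (0.5 after Benjamini-Hochberg adjustment over the 6 pairs). A p of 0.333 is the smallest this design allows, so the test could not call any difference between ligands.

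**Figure D3:**
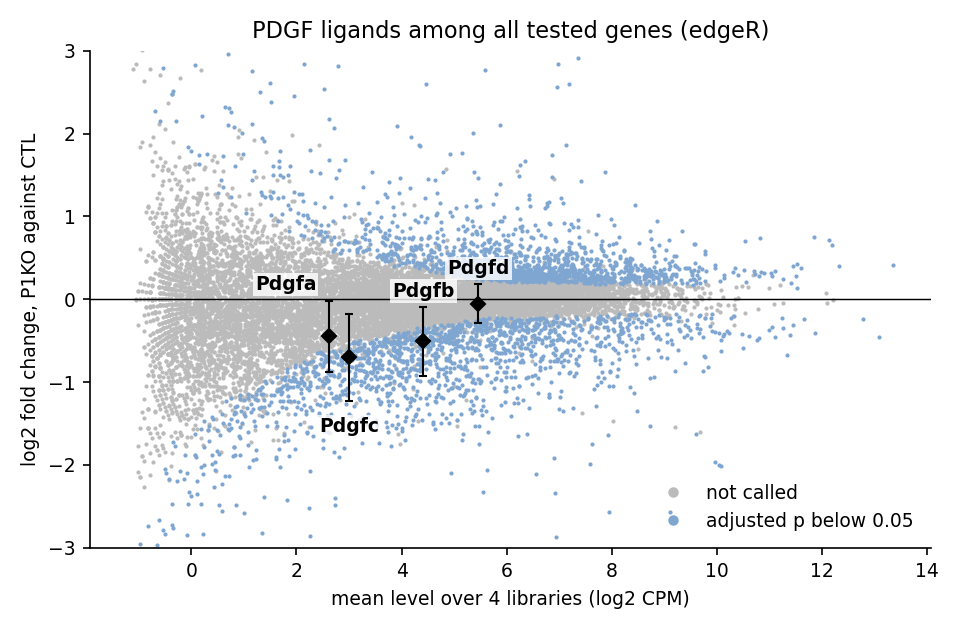
Log2 fold change of P1KO against CTL (vertical axis) by mean level over the 4 libraries (horizontal axis, log2 CPM) for all tested genes, with called genes in blue and others in grey; 49 genes beyond ±3 are outside the plot. The PDGF ligands (black diamonds, with unadjusted 95% intervals of the edgeR fit) lie between -0.70 (Pdgfc) and -0.05 (Pdgfd), and none of them is called.

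Among all tested genes, the ligands' changes were moderate. The share of tested genes with a lower log2 fold change was 9.53% for Pdgfc, 14.2% for Pdgfb, 16.2% for Pdgfa and 44.1% for Pdgfd. Likeness of pattern was measured as the Euclidean distance between log2 CPM values over the 4 libraries, each gene centred on its own mean. Between the ligands, Pdgfb and Pdgfc were the closest pair, at a distance of 0.204, and Pdgfc and Pdgfd the farthest, at 0.929. The tested gene most like Pdgfb was ENSMUSG00000013155, at a distance of 0.0508, with 67, 74, 38 and 61 reads in CTL1, CTL2, KO1 and KO3. The gene most like Pdgfa was ENSMUSG00000024191, at 0.0419, with 274, 324, 216 and 223 reads in the same order. Such likeness is easily met over 4 libraries: 79 genes lay within 0.2 of Pdgfb, 61 of Pdgfc, 379 of Pdgfa and 2041 of Pdgfd.

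The libraries were of similar depth, between 17464769 and 17918834 counts, and TMM factors lay between 0.983 and 1.01. The CTL pair was the closer. The coefficient of variation beyond counting error, from edgeR's common dispersion over tested genes, was 3.22% in CTL and 12.1% in P1KO. The median absolute log2 difference over tested genes was 0.0953 between CTL1 and CTL2 and 0.146 between KO1 and KO3. The identifiers of other genes were not matched to symbols, so Pofut1, the PDGF receptors and processing proteases, and the markers of sinusoidal endothelium, stellate cells, platelets, macrophages and heart muscle are not analysed here. Platelets and macrophages are known sources of PDGF, and their part in the ligand reads was not tested. In bulk libraries, fewer cells of a type and less RNA per cell cannot be told apart. The deposited counts are per gene, so isoforms are merged. The annotated span of Pdgfd also contains the coding gene Ddi1 and that of Pdgfb a microRNA gene, and the sources used here do not state how the counting treated reads in such overlaps.

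**Figure D4:**
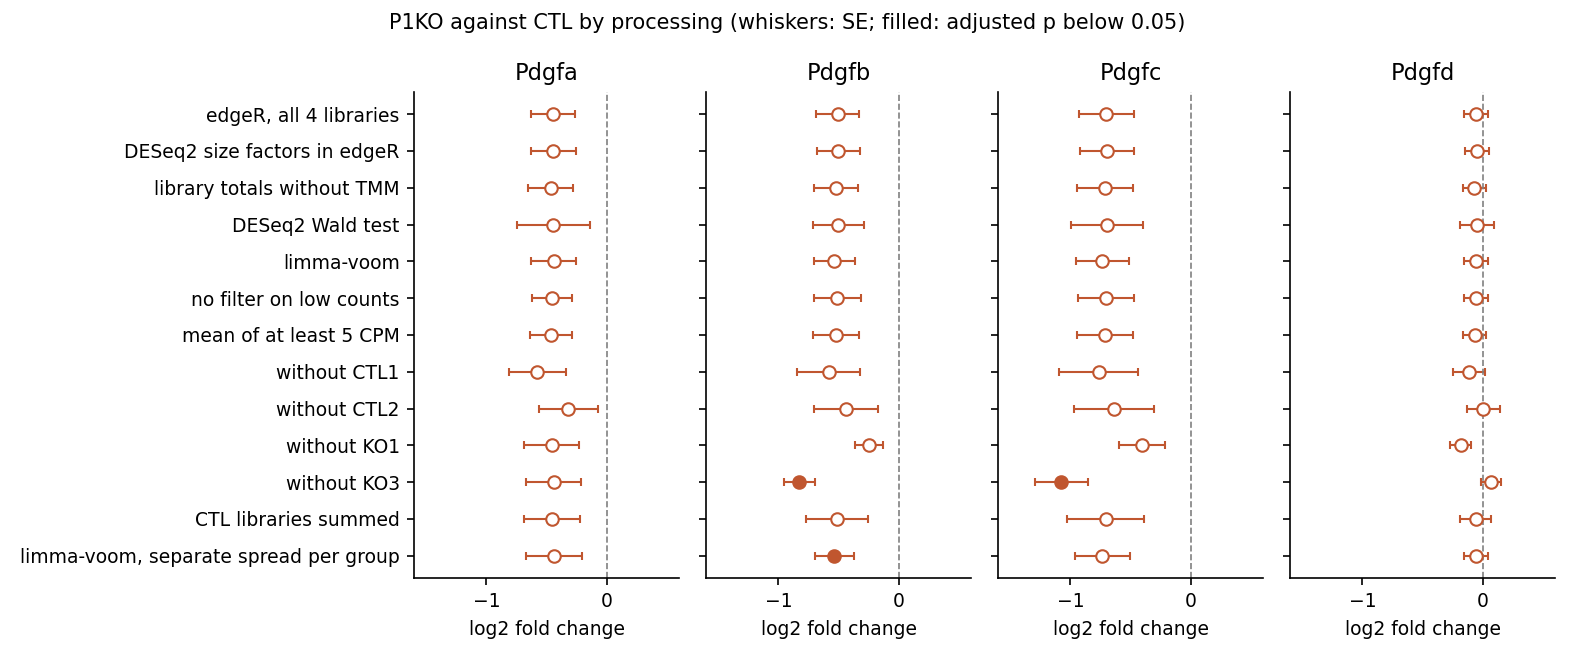
Log2 fold change of P1KO against CTL (horizontal axes) with its SE for each ligand gene, in the edgeR fit to all 4 libraries and under 12 alternatives (rows); filled points have an adjusted p below 0.05. Only Pdgfb and Pdgfc have filled points, both without KO3, and Pdgfb also with a separate spread per group. The fit without KO3 leaves KO1 alone in P1KO and called many other genes too.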

How the data were processed

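RNA-seq read counts of LSEC libraries from CCl4-treated mice were used, 2 CTL and 2 P1KO. The authors deposited 1 table of raw counts, whole reads per Ensembl gene. CASAVA and fastp, the aligner HISAT2 (2.0.5), the counter featureCounts (version 1.5.0-p3) and build mm10 are named per the submitters' processing notes; annotation and strand setting were not stated in the sources used here. Column KO3 matches no title's number and was placed in P1KO by name. No label says that libraries came from separate animals, so p-values measure the spread between libraries, which may be technical. The ligands, lists and tests were chosen with earlier results of these data known. The selection rule paired the 4 identifiers with symbols. A reference table of GRCm38.p6 (49997 genes) matched 0 identifiers; it supplied coordinates by symbol, and no sequence was used. For this reason 8 pathway lists and 11 marker lists were not analysed, and genes of like pattern are given by identifier.

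Counts were tested with edgeR 4.0.16 (R 4.3.3): filterByExpr, TMM, quasi-likelihood F-test over all 4 libraries without covariates, and Benjamini-Hochberg adjustment over all tested genes. The SE was taken as the size of the log2 fold change over the root of F. Levels are TMM-scaled CPM, and log2 CPM uses a prior count of 2. Fits were tested on simulated data. Alternatives were other scalings, DESeq2 1.42.0, limma 3.58.1, other filters, libraries left out, and summed CTL libraries. The rule for named genes took the ligands and the 1 tested gene most like each; of the latter, those of Pdgfa and Pdgfb, first in order, are printed.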

Additional observations from a re-analysis of the deposited data

How the results depend on the processing

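Pdgfa kept its direction and stayed uncalled in all 12 alternatives. Pdgfb and Pdgfc kept their direction in all 12. Their log2 fold changes were largest in size without KO3, at -0.83 and -1.075, where KO1 alone stood for P1KO. With a separate spread per group, an alternative chosen after seeing the data, Pdgfb was called (-0.53), as were 19% of tested genes. Leaving out 1 library gave log2 fold changes of -0.58 to -0.32 for Pdgfa, -0.83 to -0.25 for Pdgfb, -1.075 to -0.41 for Pdgfc and -0.18 to 0.067 for Pdgfd, whose sign turned without CTL2 (0.0057) and without KO3 (0.067). The cause was not tested. Of all tested genes, 3027 were called; the number was 1633 with no filter on low counts, 152 with the CTL libraries summed, and 120 to 5391 with 1 library left out, where the spread comes from the remaining pair and a lone library is assumed to vary like it. No paired analysis was possible because KO3 carries a number that no sample title has. Pdgfa and Pdgfc had only 82 to 132 reads in the P1KO libraries, so their counting intervals are wide. For Pdgfc the gap between KO1 and KO3 went beyond counting error (KO3 to KO1 ratio 1.59, 95% counting interval 1.20 to 2.12).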
